A study of Mus musculus with 2 samples.

Results

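The metallothioneins Mt1 and Mt2 and 8 genes of the Nrf2 antioxidant system (Nqo1, Gclm, Srxn1, Txnrd1, Slc7a11, Prdx1, Gsr and Nfe2l2) were followed across the cells of injured quadriceps. The 10 genes were taken by their symbols among the 32285 genes listed in the files, and all 10 were found. The mononuclear cells came from wild-type male C57BL/6J mice, 14 weeks old, in which barium chloride (BaCl2) had been injected into the right quadriceps either 1 or 3 days earlier to destroy myofibers and start regeneration. Cells of 5 mice were pooled into 1 library per day, sorted on light scatter, frozen and thawed before droplet capture, so that the level of a single mouse is not known and no p-value can be given. No uninjured sample was analysed here, and myofibers are too large to enter such a suspension.

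Metallothioneins are small cysteine-rich proteins that bind zinc and copper and take up oxidants. Their genes are switched on by the zinc sensor MTF1 and by glucocorticoids. Nrf2, the transcription factor encoded by Nfe2l2, is held in the cytoplasm and degraded through Keap1 until oxidants or electrophiles modify Keap1, after which it drives genes for glutathione synthesis, thioredoxin reduction and quinone detoxification. Injured muscle is filled within hours by neutrophils and then by monocytes and macrophages, both of which make oxidants, while fibro-adipogenic progenitors (FAPs) are the resident fibroblasts of the tissue.

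Mt1 and Mt2 lie side by side on chromosome 8, with Mt2 at chr8:94172618-94173567 and Mt1 at chr8:94178883-94180327 (GRCm38, plus strand), 5315 bases apart. Their promoter windows, 250 bases before to 50 after the start in the RefSeq table for GRCm38.p6, were searched on both strands for the core of the metal response element that MTF1 binds, TGCACNC or TGCGCNC. They are shown because both genes were lower together on day 3 in several cell types, and the capitals mark the cores.

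Mt1, chr8:94178839-94179138: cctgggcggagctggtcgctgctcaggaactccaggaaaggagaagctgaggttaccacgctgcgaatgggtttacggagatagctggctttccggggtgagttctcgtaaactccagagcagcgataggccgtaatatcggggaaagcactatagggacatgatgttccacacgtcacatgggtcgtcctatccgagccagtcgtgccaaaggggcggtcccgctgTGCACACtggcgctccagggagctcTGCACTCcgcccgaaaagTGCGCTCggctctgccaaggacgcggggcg

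Mt2, chr8:94172368-94172667: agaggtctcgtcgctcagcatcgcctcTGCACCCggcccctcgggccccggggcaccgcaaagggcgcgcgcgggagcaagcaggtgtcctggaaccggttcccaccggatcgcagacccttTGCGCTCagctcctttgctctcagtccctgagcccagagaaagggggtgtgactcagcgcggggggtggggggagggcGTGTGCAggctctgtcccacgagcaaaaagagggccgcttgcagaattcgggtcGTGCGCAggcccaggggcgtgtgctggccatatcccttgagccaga

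The window of Mt1 held 3 cores and that of Mt2 held 4, whereas 25.7% of the 32851 windows in the table held at least 1 and 1.97% held 3 or more. The start used for the Mt1 window lies downstream of the gene start given above, so that its 3 cores lie within those gene coordinates. An annotated transcript of Mt1 starts 7 bases before the start used. Other transcripts of Mt1 start 122 and 152 bases downstream of it, and a transcript of Mt2 starts 242 bases downstream of its own. Nearer elements may thus lie outside the windows. Gclm also had 3 such cores and Srxn1 had 1. The core of the antioxidant response element, TGACNNNGC, was found in the windows of 6 of the 9 genes that have one in the table, and in 12.4% of all windows. These 6 sites are shown with 10 bases on both sides, on the strand of the gene, with the core in capitals, because the members that share the element did not move together between the days.

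Mt2, chr8:94172529-94172557: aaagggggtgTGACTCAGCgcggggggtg

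Gclm, chr3:122245413-122245441: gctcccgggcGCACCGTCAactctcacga

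Srxn1, chr2:152105542-152105570: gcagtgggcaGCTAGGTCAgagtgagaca

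Txnrd1, chr10:82859104-82859132: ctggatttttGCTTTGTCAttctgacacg

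Prdx1, chr4:116685456-116685484: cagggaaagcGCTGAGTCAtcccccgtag

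Nfe2l2, chr2:75704885-75704913: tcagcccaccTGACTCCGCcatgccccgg

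In Gclm, Srxn1, Txnrd1 and Prdx1 the core reads on the strand opposite to the gene. No core was found in the windows of Mt1, Nqo1 and Slc7a11, nor in the other 2 of the 3 windows of Txnrd1. A match shows only that these letters are present.

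The kept cells numbered 6735 on day 1 and 4627 on day 3, with medians of 9389 and 14548 UMIs (unique molecular identifiers, each standing for 1 captured transcript). Levels are given as CPM, the usual scaling of a gene's UMIs to the total UMIs of the cells concerned, with the exact 95% Poisson interval, which covers counting error only. In all, 16 clusters were found, of which 7 were monocyte/macrophage-like (3391 cells on day 1 and 2491 on day 3), 3 neutrophil-like (2067 and 243), 2 FAP-like (645 and 828), 1 dendritic cell-like (470 and 444), 1 endothelial-like (95 and 67) and 1 satellite cell/myoblast-like (6 and 200), and 1 stayed unnamed (61 and 354). In the clusters so named, 8 of 8 FAP markers, 9 of 9 usable neutrophil markers, 8 to 11 of 11 monocyte/macrophage markers, 8 of 8 endothelial markers and 6 of 6 usable satellite cell markers were raised. The dendritic name was weaker, with 3 of 5 usable markers raised, and on day 1 its own markers summed to 486 CPM beside 3809 CPM of monocyte/macrophage markers. The endothelial-like cells were mixed, with endothelial markers at 2817 CPM beside 3317 CPM of neutrophil and 1766 CPM of erythroid markers on day 1, and at 2057 CPM beside 1685 CPM of T/NK cell markers on day 3. The FAP-like cells of day 1 and of day 3 formed different clusters, led by Prg4 and by Col1a1, and most monocyte/macrophage-like clusters also held cells of mainly 1 day. The lists of possible barcodes differ between the libraries, with 737280 on day 1 and 6794880 on day 3. A technical difference between the libraries, such as one of reagents, thus cannot be told apart from the day.

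Over all cells, 9 of the 10 members had at least 500 UMIs, the limit for a comparison of the days, and Nqo1 did not. Of these 9, 5 were at least 2-fold lower on day 3 (Mt1, Mt2, Srxn1, Slc7a11 and Gsr), where 4.7% of the 10388 genes with as many UMIs were, and 0 were at least 2-fold higher, where 20.9% were. Slc7a11 differed most, with 882 and 60.9 CPM. These totals mix cell types whose shares of the cells differed between the days, so the members were followed within each type.

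**Figure D1:**
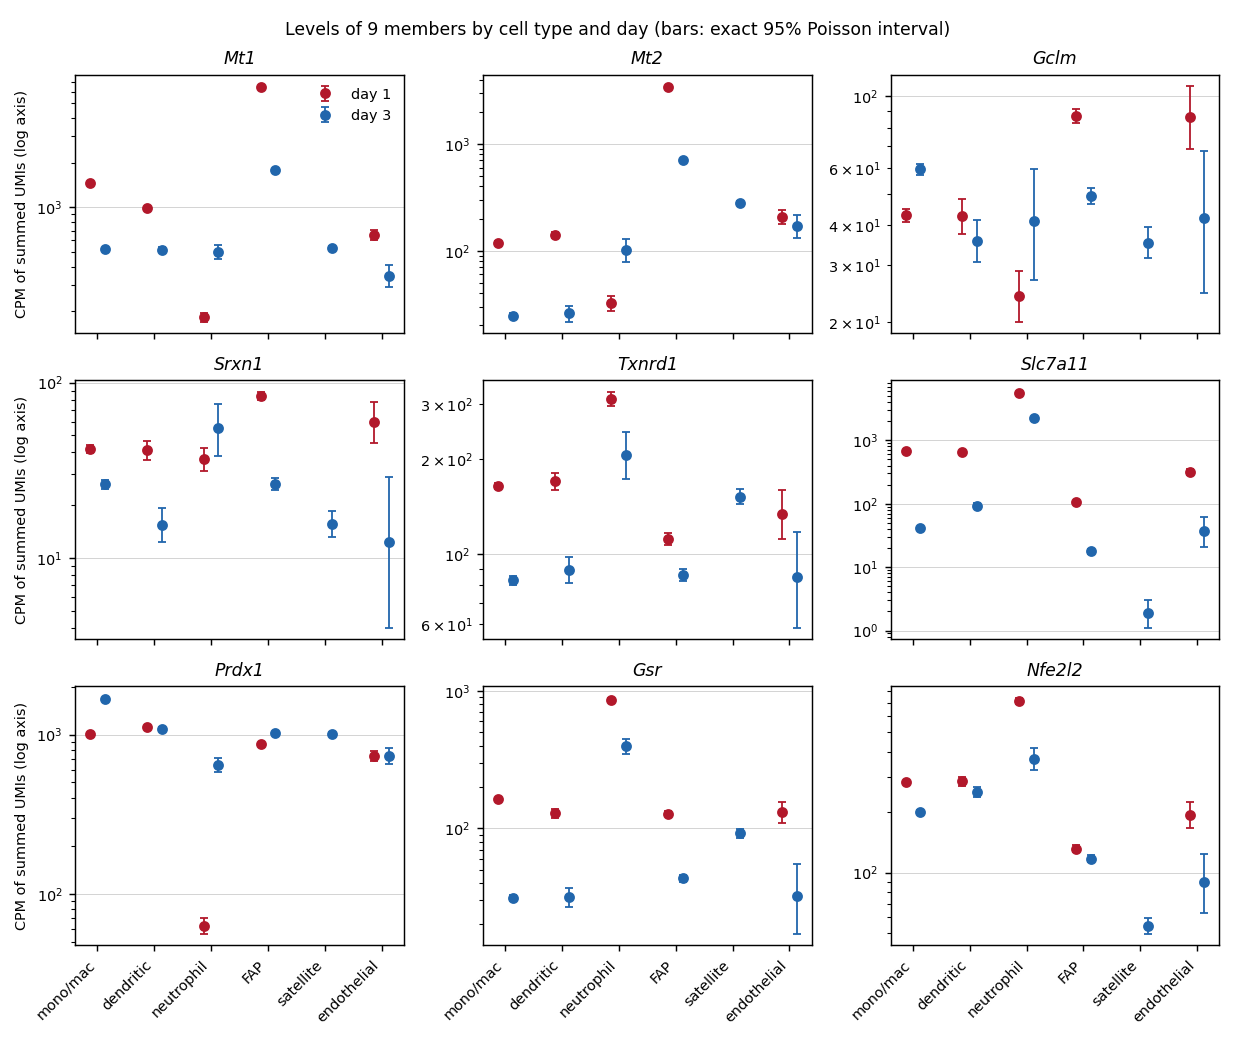
CPM of summed UMIs (log axis) for 9 members in 6 cell types on day 1 (red) and day 3 (blue), with exact 95% Poisson intervals. Mt1 and Mt2 stood highest in the FAP-like cells on both days, and Slc7a11, Gsr and Nfe2l2 stood highest in the neutrophil-like cells.

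Metallothionein transcripts were chiefly those of FAP-like cells. Mt1 stood at 6485 CPM (6449 to 6522) in FAP-like cells on day 1, against 1460.35 CPM in monocyte/macrophage-like, 984 CPM in dendritic cell-like, 652 CPM in endothelial-like and 182 CPM in neutrophil-like cells. No 2 neighbours in that order had overlapping intervals. The neutrophil-like level was 643 CPM with each library clustered on its own, and 440 CPM when each cell took the name of its highest marker score. On day 3 it stood at 1785 CPM (1769 to 1802) in FAP-like cells, and the satellite cell-like, monocyte/macrophage-like, dendritic cell-like and neutrophil-like cells lay within 502 to 537 CPM with intervals that overlapped between neighbours.

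The contrast was steeper for Mt2, the isoform next to it on the chromosome. Mt2 stood at 3441 CPM (3415 to 3468) in FAP-like cells on day 1 and at 119 CPM (116 to 122) in monocyte/macrophage-like cells, a 28.9-fold difference that was 28.6-fold on day 3 (706 against 24.7 CPM). The FAP-like cells held 91.3% of all Mt2 UMIs on day 1 and 81.8% on day 3, although they held 26.4% and 28.9% of all UMIs. Of the Mt1 UMIs they held 65.0% and 58.3%. The satellite cell/myoblast-like cells, measured on day 3 only, came second for Mt2 at 281 CPM and held 11.9% of its UMIs.

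The mix of the 2 isoforms also differed by cell type. Mt2 made up 34.7% of the Mt1 and Mt2 UMIs in FAP-like cells on day 1 (Clopper-Pearson interval 34.5 to 34.9) and 28.3% on day 3, and 34.4% in satellite cell/myoblast-like cells. In monocyte/macrophage-like cells it made up 7.53% (7.32 to 7.74) and 4.46% (4.19 to 4.73). Such a ratio within 1 group of cells does not depend on how the UMIs were scaled.

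**Figure D2:**
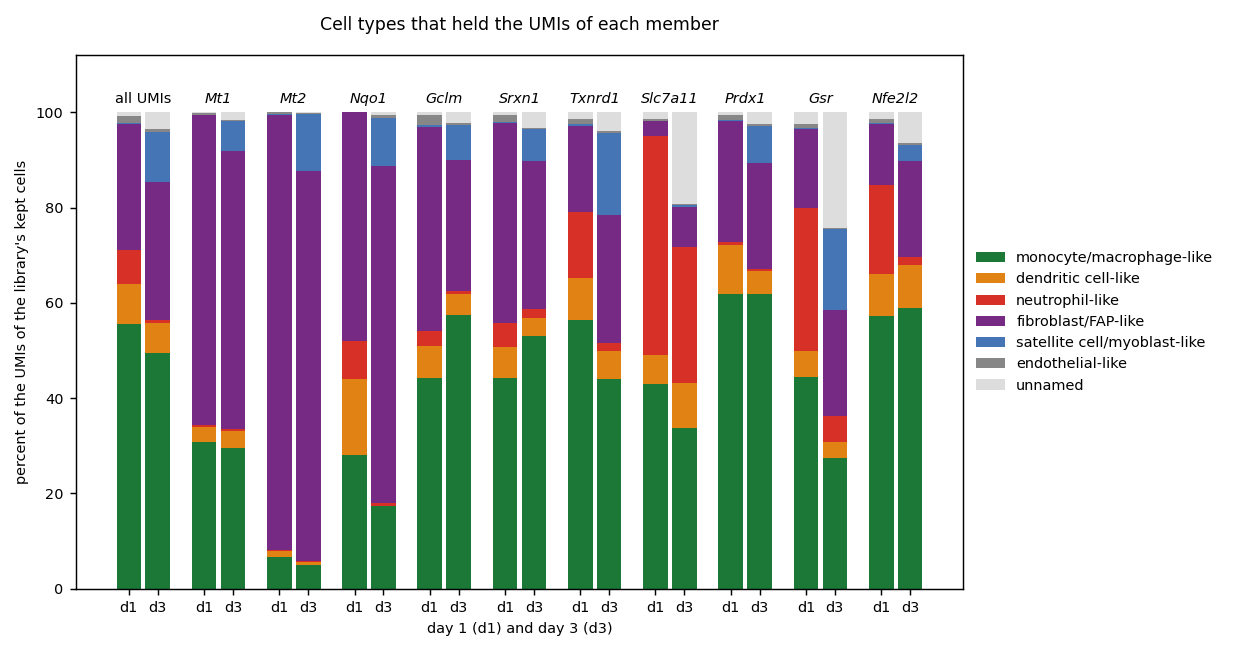
Percent of the UMIs of each member (and of all UMIs, left) held by each cell type on day 1 (d1) and day 3 (d3), summed over the kept cells of a library. The FAP-like cells (purple) held 91.3% of the Mt2 UMIs on day 1, and the neutrophil-like cells (red) held 45.8% of the Slc7a11 UMIs from 7.15% of all UMIs.

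Nearly every FAP-like cell of day 1 carried the transcripts. With each cell thinned to 3000 UMIs, which left out 3 of the 645 cells, 98.8% had an Mt1 UMI and 96.9% had an Mt2 UMI, and without thinning 99.8% and 99.4% had. Among the neutrophil-like cells of the same library the thinned shares were 21.3% and 5.498%, but 1776 of 2067 were too shallow to be thinned, with a median depth of 2155 UMIs against 27854 in FAP-like cells. Thinned to 1000 UMIs, so that no cell was left out, the shares were 93.2% and 86.4% in FAP-like cells and 7.79% and 2.08% in neutrophil-like cells. On day 3 the FAP-like shares at 1000 UMIs were 66.1% for Mt1 and 42.3% for Mt2.

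Cells of 1 type differed widely. Per 1000 UMIs, a FAP-like cell of day 1 had a median of 8 metallothionein UMIs, with 1 at the 5th and 28 at the 95th percentile and 63 in the highest cell, and 70.9% of the cells had 5 or more. On day 3 the median was 2, the 95th percentile 9 and the share with 5 or more 20.5%. Monocyte/macrophage-like cells of day 1 had a median of 1, but the highest had 93 and 8.26% had 5 or more, against 0.442% on day 3. Mt1 and Mt2 varied together from cell to cell in the day 1 FAP-like cells (Pearson r = 0.68 over the 645 cells, which share a library and a depth of 1000 UMIs) and less so on day 3 (r = 0.48 over 828 cells).

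**Figure D3:**
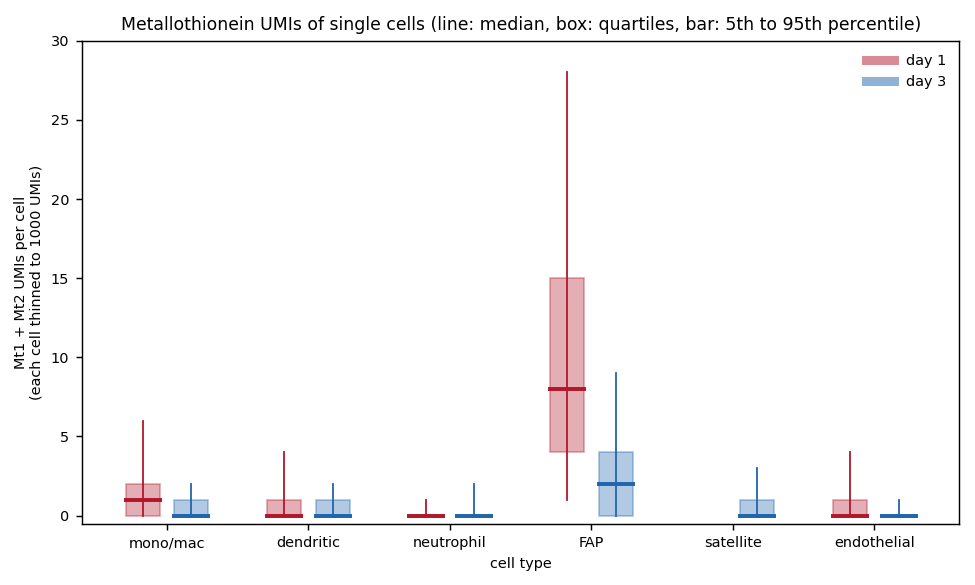
Summed Mt1 and Mt2 UMIs per cell after each cell was thinned to 1000 UMIs, by cell type on day 1 (red) and day 3 (blue), with the median as a line, the quartiles as a box and the 5th to 95th percentile as a bar. The FAP-like median was 8 on day 1 and 2 on day 3, and the median of the other types was 0 or 1.

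Free RNA was rich in metallothionein transcripts. Barcodes with at most 100 UMIs, read as ambient RNA, held Mt1 at 3181 CPM on day 1 and 1413 CPM on day 3, above the level in monocyte/macrophage-like cells of the same day. Collagen and decorin transcripts, which macrophages lack, limited the ambient share of their UMIs to at most 1.89% and 1.83%, or 60.2 CPM and 25.9 CPM of their Mt1. For Mt2 the limits were a larger part, up to 18.1 of 119 CPM on day 1 and 8.51 of 24.7 CPM on day 3. The Mt2 folds and shares given above were taken without subtracting ambient RNA. The day 1 endothelial-like level of Mt1 lay under the 1187 CPM that ambient RNA could have given at the limit set by macrophage genes in those cells, and was read as background.

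Both metallothioneins were lower on day 3 in monocyte/macrophage-like, FAP-like and dendritic cell-like cells. In monocyte/macrophage-like cells Mt1 was 1460.35 CPM on day 1 and 529 CPM on day 3, a log2 ratio of -1.47 (exact binomial interval -1.49 to -1.44), and Mt2 was 119 and 24.7 CPM, a log2 ratio of -2.27 (-2.37 to -2.17). Together they were 2.85-fold lower (log2 ratio -1.51, -1.53 to -1.49). In FAP-like cells Mt1 was 3.63-fold lower on day 3 (log2 ratio -1.86) and Mt2 was 4.87-fold lower (-2.28), from 3441 to 706 CPM. In dendritic cell-like cells Mt1 was 1.89-fold lower (984 and 519.8 CPM) and Mt2 was 5.38-fold lower. Ambient RNA could have given up to 212 CPM of that Mt1 on day 1 and 17.1 CPM on day 3. The Mt1 log2 ratio, -0.92, became -0.48 with log-normalization and -1.14 when each cell took the name of its highest marker score. For Mt2, ambient RNA could have given up to 63.7 of the 140 CPM on day 1. That Mt2 log2 ratio, -2.43, became -1.80 without the cells of highest doublet score, -3.14 with 20 principal components and -3.57 when each cell took the name of its highest marker score. Macrophage genes were at up to 31.3% of their ambient level in the FAP-like cells of day 3 and 10.9% in those of day 1, and with ambient RNA subtracted at these limits Mt1 and Mt2 were still lower on day 3. With each library clustered on its own the FAP-like log2 ratios were -1.28 and -1.54.

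The zinc system around them moved in both directions. Mtf1, the zinc sensor that activates both genes, was at 15.03 and 16.7 CPM in monocyte/macrophage-like cells, a log2 ratio of 0.15 with an interval of -0.01 to 0.31. Slc30a1, a zinc exporter and another target of MTF1, was at least 2-fold higher there on day 3 (9.40 and 19.4 CPM, log2 ratio 1.04), as was the zinc importer Slc39a10 (5.32 and 22.9 CPM, 2.10), while the importer Slc39a14 was lower (79.3 and 24.7 CPM, -1.68). Of the 4 glucocorticoid-responsive genes listed (Fkbp5, Tsc22d3, Per1 and Sgk1), 0 passed a 2-fold difference in either direction in monocyte/macrophage-like cells. Their median log2 ratio was 0.49, where the median of all 7991 genes was 0.35. In FAP-like cells 0 of the 4 passed it either, with a median of -0.51 where that of all 7674 genes was 0.15. Mtf1 was at 16.7 and 13.3 CPM in FAP-like cells (-0.33) and Slc30a1 at 13.3 and 9.33 CPM (-0.51). Slc39a14 was at 172 and 149 CPM there (-0.21) and Slc39a10 at 8.52 and 29.5 CPM (1.79). The part of zinc and glucocorticoids in the metallothionein levels was not tested.

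Slc7a11 marked the neutrophil-like cells. It encodes the xCT subunit of the exchanger that imports cystine, the limiting precursor of glutathione. On day 1 it stood at 5651 CPM (5586 to 5717) in neutrophil-like cells, 8.29-fold above monocyte/macrophage-like cells (682 CPM), with dendritic cell-like cells at 646 CPM, endothelial-like cells at 316 CPM and FAP-like cells at 107 CPM. Thinned to 1000 UMIs, 84.4% of neutrophil-like, 37.5% of monocyte/macrophage-like and 7.44% of FAP-like cells had a UMI of it. Neutrophil-like cells gave 45.8% of all its UMIs on day 1 from 7.15% of the library's UMIs. Its partner Slc3a2, the heavy chain of the exchanger, did not share this order and was lower in neutrophil-like cells of day 1 (192 CPM) than in monocyte/macrophage-like cells (399.9 CPM).

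In monocyte/macrophage-like cells Slc7a11 showed the largest day difference of the 9 members. It was at 682 CPM (673 to 690) on day 1 and at 41.5 CPM (39.5 to 43.5) on day 3, a log2 ratio of -4.04 (-4.11 to -3.97), or 16.4-fold. The paper names a limit of 200 genes per 1000 UMIs in its own quality control. Without the cells under that limit the log2 ratio of Slc7a11 was -2.97, and that of Gsr was -1.20. At 3000 UMIs per cell, 58.9% of the cells had a UMI on day 1 and 8.47% on day 3. It was also lower on day 3 in dendritic cell-like cells (646 and 93.5 CPM, 6.90-fold, or a log2 ratio of -2.79 that became -1.16 with 20 principal components). In FAP-like cells it was at 107 and 17.9 CPM, where ambient RNA could have given up to 58.7 and 30.4 CPM, and in satellite cell/myoblast-like cells its 1.91 CPM lay under the ambient limit of 6.14 CPM. The day 3 levels in FAP-like and satellite cell/myoblast-like cells were read as background. Slc3a2 differed less in monocyte/macrophage-like cells, at 399.9 and 317 CPM (log2 ratio -0.34). Neutrophil markers summed to 1504 CPM in these cells on day 1 and to 251 CPM on day 3. Their part in the day differences of Slc7a11 and Gsr was not tested.

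Glutathione was covered by Gsr and Gclm. Gsr, the reductase that restores oxidised glutathione, had the same leading cell type as Slc7a11, with 859.9 CPM (835 to 886) in neutrophil-like cells on day 1 against 164 CPM in monocyte/macrophage-like and 128 CPM in FAP-like cells. It was 5.24-fold lower on day 3 in monocyte/macrophage-like cells (31.3 CPM, log2 ratio -2.39), 4.05-fold lower in dendritic cell-like and 2.93-fold lower in FAP-like cells. The unnamed cluster, whose best-scoring marker list was monocyte/macrophage, was not counted among the monocyte/macrophage-like cells. On day 3 it held 1154 Gsr UMIs beside 1304 in those cells, and 987 Slc7a11 UMIs beside 1729. The day 1 counts were 365 beside 6465 for Gsr and 857 beside 26897 for Slc7a11. Gclm, the modifier subunit of the enzyme that starts glutathione synthesis, was higher on day 3 in monocyte/macrophage-like cells (42.9 and 59.5 CPM, log2 ratio 0.47, 0.38 to 0.56). The median log2 ratio of all genes was 0.35 in these cells, and centred on that median Gclm was at 0.125. In FAP-like cells Gclm was lower (87.0 and 49.1 CPM, -0.83, -0.94 to -0.72). The catalytic subunit Gclc was at 29.1 and 23.4 CPM in monocyte/macrophage-like cells (-0.32) and at 40.5 and 20.8 CPM in FAP-like cells (-0.96). Without centring, the ratios of the 2 subunits thus had opposite signs in the former and the same sign in the latter.

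The thioredoxin side held Txnrd1, Srxn1 and Prdx1. Txnrd1, which reduces thioredoxin with NADPH, stood highest in neutrophil-like cells on day 1 (311 CPM) and was 1.99-fold lower on day 3 in monocyte/macrophage-like cells (165 and 82.5 CPM), with a log2 ratio of -0.996 (-1.06 to -0.94) that lay just short of the 2-fold limit. Its substrate Txn1 was at 854 and 542 CPM in the same cells (-0.66). Srxn1, which rescues overoxidised peroxiredoxins, was highest in FAP-like cells on day 1 (83.8 CPM) and was 3.15-fold lower there on day 3 (26.6 CPM), against 1.58-fold lower in monocyte/macrophage-like cells (41.8 and 26.4 CPM).

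Prdx1, the peroxiredoxin that removes hydrogen peroxide, was higher on day 3 in monocyte/macrophage-like cells, as Gclm was. There it was at 1007 CPM (997 to 1017) on day 1 and 1679.7 CPM (1667 to 1692) on day 3, a log2 ratio of 0.74 (0.72 to 0.76). Centred on the median ratio of all genes it was at 0.39. At a depth of 1000, 54.7% and 72.3% of these cells had a UMI. In FAP-like cells it was at 871 and 1029 CPM (0.24, but -0.10 with each library clustered on its own), and in dendritic cell-like cells at 1109.7 and 1083 CPM (-0.04, with an interval of -0.09 to 0.02). The neutrophil-like cells of day 1 had 62.9 CPM (56.2 to 70.2), 17.6-fold below dendritic cell-like cells, and 3.53% of them had a UMI at a depth of 1000. That level was 323 CPM with each library clustered on its own, and 248 CPM with the highest marker score of each cell. Prdx1 has an annotated pseudogene, and Mt1 and Mt2 are close paralogs, so that reads shared with such a copy may be missing from their counts.

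Nfe2l2 encodes Nrf2 itself, which is regulated mainly as a protein. It was highest in neutrophil-like cells on day 1 (713 CPM), followed by dendritic cell-like (284 CPM) and monocyte/macrophage-like cells (281 CPM), whose intervals overlapped, then by endothelial-like (194 CPM) and FAP-like cells (132 CPM). In monocyte/macrophage-like cells it was 1.40-fold lower on day 3 (200.3 CPM, log2 ratio -0.49), and in FAP-like cells 1.12-fold lower, a direction that turned when ambient RNA was subtracted (0.015). Keap1, which targets Nrf2 for degradation, was higher on day 3 in monocyte/macrophage-like cells (16.4 and 37.8 CPM, log2 ratio 1.20). Maff, a small Maf partner of Nrf2, was lower (89.2 and 20.8 CPM, -2.10). Bach1, the repressor that competes for the same sites, was at 100.4 and 123 CPM there (0.29) and at 35.7 and 101.4 CPM in FAP-like cells (1.51).

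Nqo1, the quinone reductase often used to read Nrf2 activity, was almost absent. It had 25 UMIs in all cells of day 1 and 161 on day 3, 0.351 and 1.91 CPM, of which the FAP-like cells of day 3 gave 114 (4.68 CPM, 3.86 to 5.63). That level lay above the 2.46 CPM that ambient RNA, with 7.86 CPM of Nqo1 on day 3, could have given. In monocyte/macrophage-like cells it had 7 and 28 UMIs, and in dendritic cell-like cells of day 3 it had 0 of 5144073 UMIs, with an upper limit of 0.717 CPM.

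**Figure D4:**
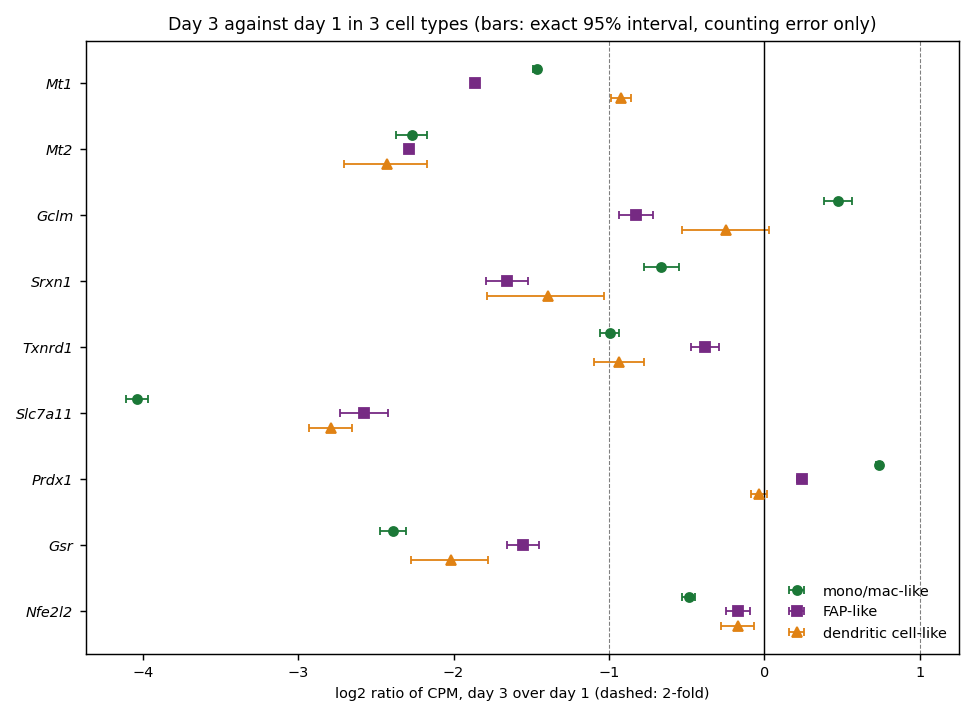
Log2 ratio of CPM, day 3 over day 1, with exact 95% intervals that cover counting error only, for 9 members in monocyte/macrophage-like (circles), FAP-like (squares) and dendritic cell-like (triangles) cells, and dashed lines at 2-fold. Slc7a11, Gsr and Mt2 lay beyond 2-fold lower in all 3 types, and Gclm and Prdx1 lay above 0 in monocyte/macrophage-like cells. The FAP-like level of Slc7a11 on day 3 was read as background.

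By type, 4 of the 9 members with at least 500 UMIs were at least 2-fold lower on day 3 in monocyte/macrophage-like cells (Mt1, Mt2, Slc7a11 and Gsr), where 5.56% of 7991 genes were, and 0 were at least 2-fold higher, where 20.3% were. Their median log2 ratio was -0.996, and that of all genes was 0.35. In FAP-like cells 5 of 9 were lower (the same 4 and Srxn1) beside 8.04% of 7674 genes, and 0 were higher beside 16.1%. Of these 5, Slc7a11 lay under its ambient limit there on day 3 and was read as background. In dendritic cell-like cells 3 of the 7 with enough UMIs were lower (Mt2, Slc7a11 and Gsr) beside 5.29% of 2909 genes, and 0 were higher beside 6.5%. The members were chosen with such results known, so the counts describe them and test nothing.

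The monocyte/macrophage-like clusters differed among themselves on the same day. On day 1 Mt1 was at 2154 CPM in the 50 cells of the cluster led by Mrc1, 1780.4 CPM in the cluster led by Ccl24 and 1638 CPM in that led by Cd163, and at 966 CPM and 632 CPM in those led by Plcb1 and Plac8. Gsr was highest in the clusters lowest for Mt1, with 554 CPM in the Plac8 cluster and 244 CPM in the Plcb1 cluster, and was at 139 CPM in the Mrc1, 99.7 CPM in the Ccl24 and 74.3 CPM in the Cd163 cluster. Slc7a11 was highest in the Plcb1 cluster (1082 CPM) and lowest in the Cd163 cluster (347 CPM). Neutrophil markers summed to 4117 CPM in the Mrc1, 3392 CPM in the Plcb1, 2661 CPM in the Plac8, 977 CPM in the Ccl24 and 568 CPM in the Cd163 cluster, and their part in these differences was not tested.

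On day 3 the cluster led by Rsad2, whose other leading genes are interferon-induced, kept the most Slc7a11 (84.2 CPM) and Gsr (63.9 CPM), and the cluster led by Gpnmb had the least of both (17.1 and 16.8 CPM) with the most Prdx1 (1953 CPM). Neutrophil markers summed to 672 CPM in the Rsad2 cluster and 84.9 CPM in the Gpnmb cluster, and their part was not tested. Every day 3 cluster lay below every day 1 cluster for Mt1, Slc7a11, Gsr and Txnrd1, among monocyte/macrophage-like clusters with at least 50 cells in a library. Every day 3 cluster among them lay above every day 1 cluster for Prdx1. The unnamed cluster, left out here, broke this order for Gsr (380.3 CPM on day 3) and Prdx1 (939 CPM on day 3, against 1280 CPM in the day 1 Cd163 cluster). It also broke it for Mt1 (502 CPM on day 1, against 552 CPM in the day 3 Gpnmb cluster), but not for Slc7a11 and Txnrd1. For Mt2 the clusters of the days overlapped, since the Plac8 cluster had 14.4 CPM on day 1. The 50 day 1 cells in the cluster led by Mrc1, which held 1213 cells on day 3, had 647 CPM of Mt2, but 5 of them gave 56.8% of those UMIs.

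**Figure D5:**
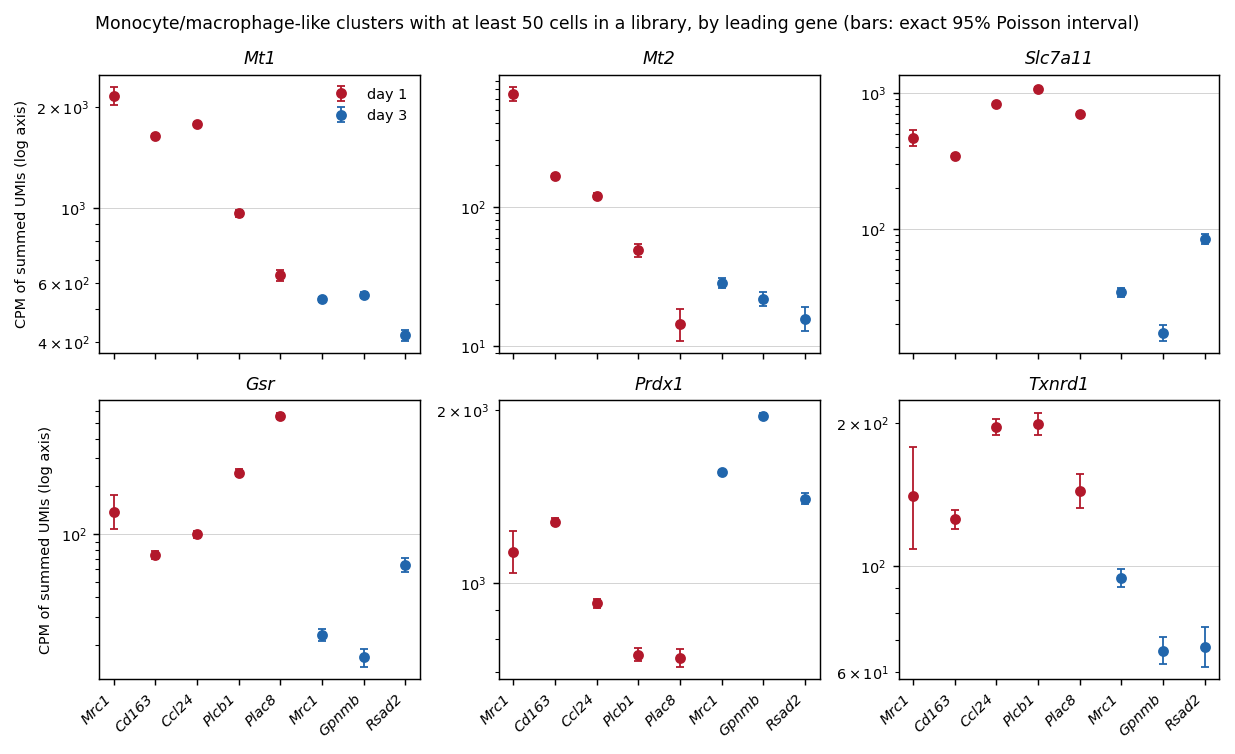
CPM of summed UMIs (log axis) with exact 95% Poisson intervals for 6 members in the monocyte/macrophage-like clusters that had at least 50 cells in a library, named by their leading gene, on day 1 (red) and day 3 (blue). Prdx1 was at 1404 to 1953 CPM in the day 3 clusters and at 743 to 1280 CPM in those of day 1.

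The neutrophil-like cells of day 3 could not be compared as closely. They were 243 cells, in which 4 of the 6 members with at least 500 UMIs passed 2-fold, Slc7a11 and Gsr lower (beside 17% of 1398 genes) and Mt1 and Prdx1 higher (beside 16.8%). In these cells Col1a1, Col1a2, Col3a1 and Dcn summed to 1853 CPM against 21.6 CPM on day 1, and S100a8, a defining neutrophil transcript, was at 13501 against 36451 CPM. Ambient RNA at the limit set by those collagens would have given 492 of the 502 CPM of Mt1. With each library clustered on its own, Slc7a11 was at 3607 and 3308 CPM (log2 ratio -0.12), Gsr at 616 and 542 CPM (-0.18), Prdx1 at 323 and 345 CPM (0.10) and Mt1 at 643 and 255 CPM (-1.33), and collagens at 78.5 and 197 CPM. With the highest marker score of each cell, the day 1 levels were 4417 CPM for Slc7a11, 704 CPM for Gsr, 248 CPM for Prdx1 and 440 CPM for Mt1. The day differences in neutrophil-like cells thus changed in size, and for Mt1 in direction, with how the cells were named. Their day 1 levels changed with it as well. The place of these cells as the type with most Slc7a11, Gsr, Nfe2l2 and Txnrd1 refers to the clusters of both libraries together. That place is among the named types. The unnamed cluster came near it for Gsr on day 3 (380.3 against 397 CPM), for Nfe2l2 on day 3 (304 against 367 CPM) and for Txnrd1 on day 1 (263 against 311 CPM), with intervals that overlapped in each of these 3 cases.

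The wider antioxidant genes were also followed in monocyte/macrophage-like cells. Of all 7991 genes there, 20.3% were at least 2-fold higher on day 3 and 5.56% lower. Of 10 thioredoxin and peroxiredoxin genes, all with at least 500 UMIs, Prdx4 of the endoplasmic reticulum was higher on day 3 (22.4 and 114 CPM, log2 ratio 2.35), Prdx6 (691 and 205 CPM, -1.75) and Prdx5 (859 and 346 CPM, -1.31) were lower, and 7 stayed within 2-fold. Of the superoxide dismutases and catalase, 3 of 4 had enough UMIs, and mitochondrial Sod2 was lower (413 and 111.6 CPM, -1.89) while catalase, Cat (13.8 and 49.4 CPM, 1.84), and cytosolic Sod1 (30.7 and 71.6 CPM, 1.22) were higher. Sod3 had 27 and 81 UMIs there. Of 13 genes of glutathione synthesis and use, 10 had enough UMIs, and Gpx3 was higher (2.91 and 19.0 CPM, 2.70) and the transferase Gstp1 lower (16.9 and 7.72 CPM, -1.12).

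Of 10 further genes bound by Nrf2, 8 had enough UMIs in monocyte/macrophage-like cells. Nqo2 (5.5998 and 35.1 CPM, log2 ratio 2.64) and Cbr3 (5.52 and 11.1 CPM, 1.00) were at least 2-fold higher on day 3, with 0 lower. The shares of all genes in these cells were 20.3% higher and 5.56% lower. Ephx1 had 8 and 69 UMIs. Hmox1, which degrades heme, was at 981 and 795 CPM (-0.30). Of the 7 Nrf2 regulators, Keap1 and Maff passed 2-fold, in opposite directions. The 5 measured genes of NADPH supply and the 5 of the oxidant-producing NADPH oxidase and related enzymes all stayed within 2-fold, with medians of 0.17 and 0.02. Of 8 genes that respond to cell isolation, Atf3 (208 and 499 CPM, 1.26) and Hspa1b (382 and 890.5 CPM, 1.22) were at least 2-fold higher on day 3. In FAP-like and dendritic cell-like cells 5 of 8 were (median log2 ratios 1.22 and 1.55), beside 16.1% and 6.5% of all genes. The part of isolation in the members' levels was not tested.

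Over the 11 groups of cell type and day with at least 50 cells, which share 2 libraries, the genes whose log2(CPM + 1) followed a member most closely among 10388 genes were Atf5, Lpar1 and Rdh10 for Mt2 (Pearson r = 0.94, 0.93 and 0.92), Csrnp1, Mir22hg and Tnf for Slc7a11 (0.99, 0.98 and 0.98), Tmem256, Dbi and Snx17 for Prdx1 (0.99, 0.99 and 0.98) and Treml2, Pilra and Snx20 for Nfe2l2 (0.98, 0.98 and 0.97). For Nqo1, with its few UMIs, they were Ddit4l, Angpt1 and Pdgfrl (0.94, 0.93 and 0.92). Among the members themselves Txnrd1 and Gsr (r = 0.96), Slc7a11 and Nfe2l2 (0.93) and Mt1 and Mt2 (0.80) were the closest pairs, and Prdx1 and Gsr were the most opposed (-0.75). Each of these is a description over points that share libraries.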

How the data were processed

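Single-cell RNA was measured in 1 library per day, and the members and gene lists were chosen with earlier results of these data known. The authors deposited unnormalised counts of UMIs for every listed gene and barcode of 10x 3-prime libraries, made with Cell Ranger 5.0.0 on mm10 according to the submitters' processing notes, with no call of cells. Library totals were 74852240 and 102565783 UMIs. The 7367 and 6640 barcodes with the most UMIs were taken, and those under 1000 UMIs or 200 genes or above 7.5% mitochondrial UMIs were left out. No barcode was shared. Doublets were left in (the sort was on scatter), and 1 alternative took out the 363 and 171 cells with the highest scores.

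Clusters came from both libraries together in R 4.3.3 with Seurat 5.3.0, after sctransform 0.4.2, with the S minus G2M score and mitochondrial share regressed out, using 10 PCs at resolution 0.8. The members, pathway genes and naming markers were kept out of the variable features. Names followed the best-scoring marker list, and needed 3 raised markers and no rival list with more of the 10 leading genes. Ratios had 0.5 added to each count and exact binomial intervals. UMIs were thinned to 3000 and 1000 per cell. Alternatives changed the call of cells, filters, naming, clustering, scaling, doublets and ambient RNA. The ratio script was tested on simulated data. The named genes are the 10 members, pathway genes past 2-fold in monocyte/macrophage-like cells (up to 4 per list), fixed partners, and the 3 genes most like a member in pattern. Python 3.11.15, numpy 2.4.6, scipy 1.17.1 and pandas 2.3.3 were used. Promoter windows came from RefSeq for GRCm38.p6, and 9 of 10 members matched.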

Additional observations from a re-analysis of the deposited data

Results flagged for a closer look

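Several members had a log2 ratio, day 3 over day 1, above 0 in neutrophil-like cells and below 0 in another type, with intervals of counting error that excluded 0, and with 1 library per day these differences between cell types were not tested. Mt1 was at 1.46 in neutrophil-like and -1.86 in FAP-like cells, and Mt2 at 1.65 in neutrophil-like and -2.43 in dendritic cell-like cells. Mt1 in neutrophil-like cells turned negative under 3 alternatives, the lowest being -2.89 with ambient RNA subtracted, and the day 3 level of Mt2 there (100.5 CPM) lay under its ambient limit of 161 CPM. Gclm was at 0.79 in neutrophil-like and -0.83 in FAP-like cells, and Srxn1 at 0.60 and -1.65. The neutrophil-like values rest on 330 (Mt1), 66 (Mt2), 27 (Gclm) and 36 (Srxn1) UMIs on day 3, and Mt2, Gclm and Srxn1 had fewer than the 500 UMIs over both days that were asked of a comparison, in cells whose collagen transcripts stood at up to 34.8% of their ambient level, against 2.05% on day 1.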

How the results depend on the processing

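No paired analysis was possible because each day is 1 library of different mice. The log2 ratio of Mt1 and Mt2 together in monocyte/macrophage-like cells, -1.51, stayed below -1 under all 16 alternatives and left its counting interval under 9. It was -1.54 with another call of cells, -1.55 with a mitochondrial limit of 15% and -1.61 without cells of few genes per UMI. It was -1.47 with log-normalization, -1.49 with 20 PCs and -1.54 with the highest marker score of each cell. For the mean of the cells' CPM it was -1.55, and centred on the median ratio -1.86. With monocytes/macrophages picked by a marker rule it was -1.62, from 1255 cells on day 1 and 916 on day 3. That rule imitates the authors' selection, but theirs was larger at the later day, so the cells are not the same. The number of members at least 2-fold lower in monocyte/macrophage-like cells was 4 to 6, and 0 were higher under each alternative. Ratios reversed for Mt1 in neutrophil-like cells with each library clustered on its own (-1.33), with the highest marker score of each cell (-1.06) and with ambient RNA subtracted (-2.89). They also reversed for Prdx1 in FAP-like cells with each library clustered on its own (-0.10), for Nfe2l2 in FAP-like cells with ambient RNA subtracted (0.015), and for Nfe2l2 in dendritic cell-like cells with log-normalization (0.33) and 20 PCs (0.35), and the cause was not tested. Among the other results 228 of 453 values stayed inside their counting interval and 218 left it. Slc7a11 and Gsr in monocyte/macrophage-like cells ranged from -4.39 to -2.97 and from -2.74 to -1.20, both closest to 0 without cells of few genes per UMI. Counting all genes with at least 100 UMIs, 27.7% were 2-fold higher and 5.44% lower. Thinning to 1000 UMIs was added after seeing the data. Nqo1 was too shallow to compare, and 1 library per day leaves the spread between mice unknown.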

Other observations

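The unnamed cluster led by Wfdc21, Ifitm6 and Lcn2 was rich in the members that marked neutrophil-like cells. Its best-scoring marker list was monocyte/macrophage, with 11 of 11 markers raised, but another list had more of its 10 leading genes. On day 1 monocyte/macrophage markers summed to 3675 CPM in this cluster and neutrophil markers to 15311 CPM. The day 3 sums were 4572 and 2742 CPM. The 61 day 1 cells of this cluster had Slc7a11 at 1447 CPM, Gsr at 616 CPM and Nfe2l2 at 454 CPM. Its 354 day 3 cells had 325 CPM, 380.3 CPM and 304 CPM. It held 24.2% of the Gsr UMIs and 19.3% of the Slc7a11 UMIs of day 3 from 3.61% of all UMIs. Mt2 was at 13.5 and 9.23 CPM in these cells.

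Barcodes with at least 1000 UMIs and 200 genes that were left out for mitochondrial UMIs numbered 277 on day 1 and 1804 on day 3. Against the UMIs of non-mitochondrial genes, Slc7a11 was at 2236 CPM in those of day 1, where the kept cells had 903 CPM, and neutrophil markers summed to 26706 CPM against 7597 CPM. On day 3 Mt1 was at 718 CPM in the left-out barcodes and 925 CPM in the kept cells, and Mt2 at 265 and 260.4 CPM.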
